A study of Mus musculus with 48 samples.

Results

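The samples described here are the 6 arrays that compared jejunal epithelium of mice given 0.3 µg/kg of TCDD with that of vehicle mice. They were chosen by the dose in their labels and are 6 of the 48 arrays of the series. The mice were female and of the C57BL/6 strain. By gavage they received TCDD in sesame oil, or sesame oil alone, every 4 days over 28 days, although another label text also speaks of daily gavage. Each array held the RNA of 1 treated and 1 vehicle animal in 2 colours, and a second array of the same animals had the dyes swapped. The 6 arrays therefore give 3 animal pairs, which are 3 of the 24 pairs of the series. The other pairs received 0.01, 0.03, 0.1, 1, 3, 10 or 30 µg/kg. Only 3 vehicle animals were used, each paired with 1 treated animal at every dose. The replicate numbers 1, 2 and 3 name these vehicle animals, and differences from vehicle at different doses are not independent of each other. Of 41085 probes in the deposited table, 23006 had a usable value on all 6 arrays. Of these, 19338 named 1 gene, which gave 13870 genes.

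TCDD (2,3,7,8-tetrachlorodibenzo-p-dioxin) is a persistent dioxin that binds the aryl hydrocarbon receptor, a ligand-activated transcription factor. The bound receptor moves to the nucleus, pairs with Arnt and binds dioxin response elements, whose core reads GCGTG, near genes such as Cyp1a1, Cyp1b1 and Tiparp. In the gut the receptor also senses dietary and microbial ligands, and the jejunal epithelium, built of absorptive enterocytes with goblet, enteroendocrine and crypt cells, is a site where Cyp1a1 is inducible.

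Values are log2 ratios of treated over vehicle, so that -1 stands for 0.5 times the vehicle signal. Each array was centred on its median, and a pair's value is the mean of its 2 arrays. The labels state neither the base of the logarithm nor its direction. The direction is likely and rests on Cyp1a1, which was between 1.48 and 3.67 on all 12 arrays at 10 and 30 µg/kg. In such bulk samples, fewer cells of a type and less RNA per cell cannot be told apart. A ratio also gives no level, so the tissue label could not be checked against marker abundance.

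In each of the 3 pairs a group of genes stood apart from the other pairs. In the pair of replicate 1, the 21 interferon response genes had a median of -0.72, against -0.11 and 0.25. In the pair of replicate 2, Nfil3 and Arntl, both of the circadian clock, were at 2.43 and 1.73, while Nr1d2, a clock repressor, was at -3.18. Replicates 1 and 3 had 0.00 and 0.11 for Nfil3, and 0.03 and 0.16 for Arntl. In the pair of replicate 3, Amy2a5 and Cpb1, digestive enzymes of the exocrine pancreas, were at 3.52 and 3.35, and between -0.37 and -0.07 in the other pairs. The 2 arrays of that pair had a correlation of 0.024 across probes once the mean profile of each dye orientation was removed, against 0.275 in replicate 1 and 0.593 in replicate 2. The calls described next depended on these pairs. With all 3 pairs 16 genes were called. Without replicate 1 there were 17, of which 8 were among the 16. Without replicate 2 there were 6, without replicate 3 there were 3, and without both there were 0 from the pair that was left. The part of the interferon, clock and pancreas genes in those calls was not tested.

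At 0.3 µg/kg, 12 genes fell and 4 rose against vehicle, led by the falls of Taf15, Gprin3 and Smc2. Uggt1, Golgb1, Arfgef1 and Dag1 were also among those that fell. None of the 11 measured genes of the aryl hydrocarbon receptor battery was called, Cyp1a1 included. The calls are limma's moderated test of the mean of 3 pairs at a Benjamini-Hochberg adjusted p under 0.05. They are 0.115% of the genes tested, 0.0288% higher and 0.0865% lower, and 1335 genes (9.63%) had an unadjusted p under 0.05. The split between rises and falls depends on the scaling. Without centring 2 genes were called higher and 152 lower, and with quantile normalization between arrays 0 were called higher and 6 lower. Before centring, the arrays had medians from -0.09 to -0.06.

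**Figure D1:**
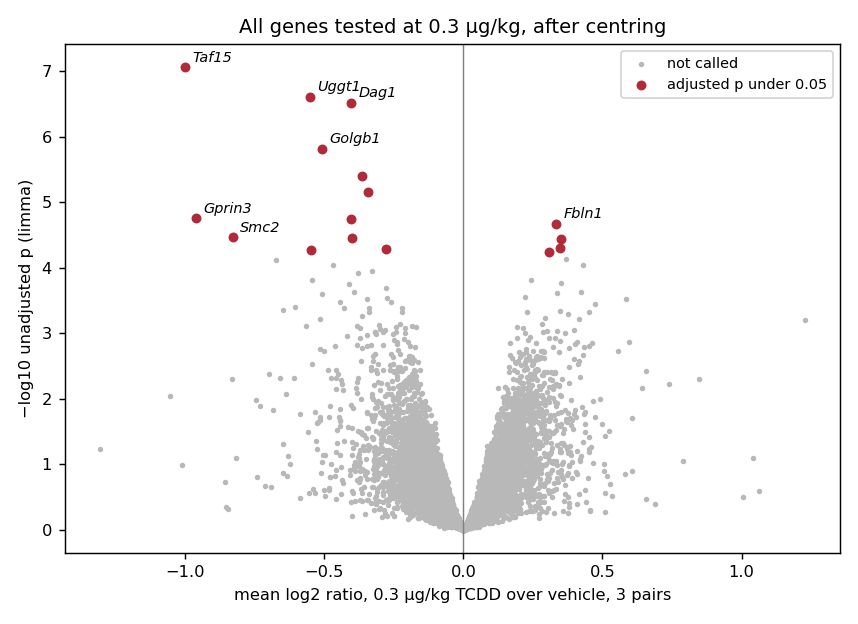
Each point is 1 of the 13870 genes, with the mean log2 ratio of 3 pairs (0.3 µg/kg of TCDD over vehicle, centred arrays) on the x axis and -log10 of the unadjusted limma p on the y axis. The 16 called genes are red, and 12 of them lie left of 0 with Taf15, at -1.0, uppermost.

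The plot of all genes shows that calls followed small spread as much as size. In the plot of all genes, Taf15 was called at -1.0 and Dag1 at -0.40, whereas some genes beyond -1 were not called. Defa21, a Paneth cell defensin with the lowest mean of all at -1.31, had pair values of -1.56, -0.36 and -2.0 (adjusted p = 0.536). It was singled out after its values were seen.

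Taf15 encodes an RNA-binding protein that takes part in transcription and splicing. Its values were -0.83, -1.12 and -1.05 in the 3 pairs. All 6 arrays were below 0, as for 2.2% of all genes, at values between -1.63 and -0.29. The mean was -1.0 ± 0.15 (SD, n = 3), with an adjusted p of 0.0012 by limma, the smallest at this dose. Leaving out any 1 replicate kept the call, with adjusted p-values of 0.0103, 0.0313 and 0.0311 by limma. In a fit of the 3 pairs of this dose alone Taf15 was not called (adjusted p = 0.419 by limma).

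Gprin3 encodes a membrane protein that binds G protein alpha subunits. Its pair values were -0.43, -1.5 and -0.95, so that replicate 2 was the lowest and replicate 1 the nearest to 0. The mean was -0.96 ± 0.53 (SD, n = 3; adjusted p = 0.0313 by limma), with 6 of 6 arrays below 0. The call ended without replicate 2 (adjusted p = 0.196) and without replicate 3 (0.248). Smc2 is the ATPase core that condensin, the complex compacting mitotic chromosomes, builds with Smc4. Its pairs were closer together, at -0.66, -0.91 and -0.92, and its mean was -0.83 ± 0.14 (SD, n = 3; adjusted p = 0.0419 by limma). All 6 arrays were below 0, yet the call ended without any 1 of the pairs (adjusted p = 0.0706, 0.165 and 0.341). Each of these genes rests on 1 probe. Of 3 other Smc2 probes 1 had no usable value on the 6 arrays, and 2, each measured on only 4 of them, averaged -0.17 and -0.05.

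The windows around the starts of these genes and of Cyp1a1 are printed because the receptor's core motif can be read in them. Each runs from 250 bases before to 50 bases after the start in RefSeq's annotation of GRCm38.p6, 5′ to 3′ on the gene's strand. Capitals mark GCGTG on either strand, so that CACGC also counts. The windows are chr11:83472858-83473157 (plus strand) for Taf15, chr6:59426257-59426556 (minus strand) for Gprin3, chr4:52438971-52439270 (plus strand) for Smc2 and chr9:57697363-57697662 (plus strand) for Cyp1a1.
Taf15: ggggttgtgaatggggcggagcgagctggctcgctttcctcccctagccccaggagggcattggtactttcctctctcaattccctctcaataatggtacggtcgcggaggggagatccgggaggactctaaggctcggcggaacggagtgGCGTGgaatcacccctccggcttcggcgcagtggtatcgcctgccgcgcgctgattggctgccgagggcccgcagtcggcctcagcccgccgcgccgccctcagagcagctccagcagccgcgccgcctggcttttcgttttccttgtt
Gprin3: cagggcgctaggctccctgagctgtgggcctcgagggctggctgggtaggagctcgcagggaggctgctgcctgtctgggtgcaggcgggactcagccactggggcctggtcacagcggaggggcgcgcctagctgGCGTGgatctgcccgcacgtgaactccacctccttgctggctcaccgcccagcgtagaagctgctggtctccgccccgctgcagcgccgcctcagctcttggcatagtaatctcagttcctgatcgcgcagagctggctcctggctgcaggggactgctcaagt
Smc2: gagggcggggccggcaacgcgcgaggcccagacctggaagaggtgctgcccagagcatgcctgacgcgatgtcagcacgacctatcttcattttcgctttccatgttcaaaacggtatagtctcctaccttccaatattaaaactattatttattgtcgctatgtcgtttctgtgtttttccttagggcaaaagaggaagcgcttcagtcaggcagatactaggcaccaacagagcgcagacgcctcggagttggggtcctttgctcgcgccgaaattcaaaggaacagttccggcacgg
Cyp1a1: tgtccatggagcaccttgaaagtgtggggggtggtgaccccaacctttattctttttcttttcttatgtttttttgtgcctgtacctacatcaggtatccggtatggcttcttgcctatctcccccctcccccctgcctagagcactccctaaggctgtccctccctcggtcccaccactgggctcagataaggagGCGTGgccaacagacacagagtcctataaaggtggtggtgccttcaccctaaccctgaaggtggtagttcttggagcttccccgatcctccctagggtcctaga

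Taf15, Gprin3 and Cyp1a1 hold 1 match each, which starts 99, 114 and 54 bases before the gene's start, and the Smc2 window holds none. Of the 12 genes that fell, 9 had a window in the promoter table, and 6 of these 9 held a match. Among the 4 that rose it was 2 of 3. Over all tested genes with a window, 48.5% (5418 of 11163) held one. A match is a stretch of letters, not a measured binding site.

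**Figure D2:**
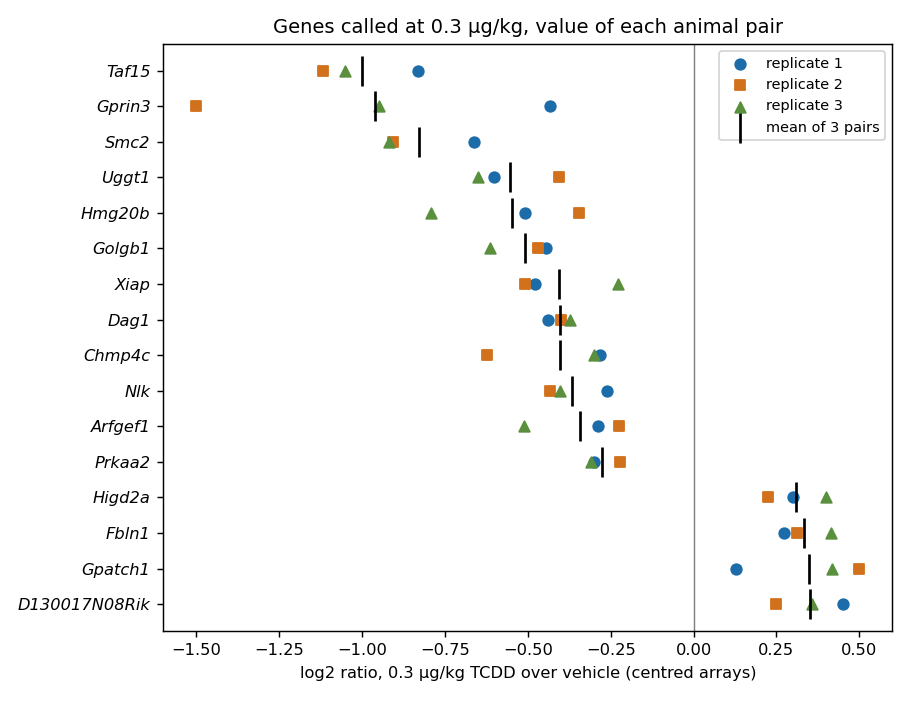
Log2 ratios of treated over vehicle (x axis, centred arrays) of the 16 called genes, with 1 symbol for each animal pair and a bar for the mean of 3 pairs. The pairs of Taf15 lie between -1.12 and -0.83, those of Dag1 within -0.44 and -0.37, and those of Gprin3 are the most spread, from -1.5 to -0.43.

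Uggt1, the endoplasmic reticulum enzyme that re-glucosylates misfolded glycoproteins, had -0.60, -0.41 and -0.65 in the pairs and a mean of -0.55 ± 0.13 (SD, n = 3; adjusted p = 0.0014 by limma). Golgb1, which encodes the Golgi tether giantin, had -0.45, -0.47 and -0.61 and a mean of -0.51 ± 0.09 (adjusted p = 0.00528). Arfgef1, an exchange factor for ARF GTPases at the trans-Golgi, had -0.29, -0.22 and -0.51 and a mean of -0.34 ± 0.15 (adjusted p = 0.0163). For Golgb1 and Arfgef1 the probes disagreed. Of the 3 complete Golgb1 probes, 2 averaged -0.78 and -0.74 and 1 averaged -0.01, while partly measured ones averaged 0.06 (5 arrays), 0.29 (3 arrays) and -0.13 (3 arrays). Of the 2 complete Arfgef1 probes, 1 averaged -0.65 and the other -0.03, and a probe with values on 5 arrays averaged -0.02. A single complete probe measured Uggt1. Other Uggt1 probes, with values on 5 and 3 arrays, averaged -0.16 and 0.48. Without replicate 3 none of these genes was called (adjusted p = 0.0582 for Uggt1, 0.134 for Golgb1 and 0.312 for Arfgef1).

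Dag1, which encodes dystroglycan, the receptor linking the cytoskeleton to laminin, had the tightest pair values among the falls. Its pairs were at -0.44, -0.40 and -0.37, with a mean of -0.40 ± 0.03 (SD, n = 3; adjusted p = 0.0014 by limma). The dye orientations averaged in these pairs differed. With the treated animal in Cy5 the mean was -0.70 (adjusted p = 5.46e-05 by limma), and in Cy3 it was -0.11 (adjusted p = 0.34). A single orientation does not cancel dye bias. Dag1 was below 0 on 5 arrays and above 0 on 1. Both of its probes were low, at -0.37 and -0.44. Like Taf15, it stayed called without any 1 replicate (adjusted p between 0.0288 and 0.0313 by limma). Chmp4c, an ESCRT-III subunit that acts in the last step of cell division, had -0.28, -0.62 and -0.30 (mean -0.40 ± 0.19, adjusted p = 0.0419). Of its 3 probes 1 averaged -0.98, and the others averaged -0.19 and -0.04.

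The remaining falls were of regulators with means from -0.55 to -0.28. Hmg20b, a subunit of the LSD1-CoREST histone demethylase complex, had -0.51, -0.35 and -0.79 (mean -0.55 ± 0.23, SD, n = 3; adjusted p = 0.0493 by limma). Xiap, an inhibitor of caspases, had -0.48, -0.51 and -0.23 (mean -0.41 ± 0.16, adjusted p = 0.0313). It rests on 1 complete probe, and another Xiap probe, measured on 5 arrays, averaged 0.05. Nlk, a kinase that acts on TCF and LEF factors of the Wnt pathway, had -0.26, -0.43 and -0.40 (mean -0.37 ± 0.09, adjusted p = 0.0108). As with Golgb1, the Nlk probes split, with averages of -0.63 and -0.10. Prkaa2, a catalytic subunit of the energy sensor AMPK, had -0.30, -0.22 and -0.31 (mean -0.28 ± 0.05, adjusted p = 0.0493). Hmg20b and Nlk were below 0 on all 6 arrays, Xiap and Prkaa2 on 5. The calls of Hmg20b, Prkaa2 and Chmp4c ended without any 1 of the 3 pairs, that of Xiap without replicate 1 or 2, and that of Nlk without replicate 2 or 3.

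The 4 rises were smaller than the leading falls, with means from 0.31 to 0.35. Fbln1 encodes fibulin 1 of the extracellular matrix and had 0.27, 0.31 and 0.41 in the pairs (mean 0.33 ± 0.07, SD, n = 3; adjusted p = 0.0329 by limma). It was above 0 on 6 of 6 arrays, as were 1.72% of all genes, but 1 of its probes averaged 0.57 and the other 0.10. Higd2a, a factor in the assembly of mitochondrial respiratory complexes, had 0.30, 0.23 and 0.40 (mean 0.31 ± 0.09, adjusted p = 0.0493). Gpatch1, which encodes a G-patch domain protein, had 0.13, 0.50 and 0.42 (mean 0.35 ± 0.19, adjusted p = 0.0493). A second Gpatch1 probe, measured on 5 arrays, averaged 0.05. The transcript D130017N08Rik had 0.45, 0.25 and 0.36 (mean 0.35 ± 0.10, adjusted p = 0.0419). D130017N08Rik was above 0 on all 6 arrays, Higd2a on 5 and Gpatch1 on 4. Without replicate 2 or without replicate 3 none of the 4 rises was called.

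Pairs that shared a vehicle animal deviated together. For this, each dose's mean was subtracted from its pairs. Across genes, pairs at different doses then had a mean correlation of 0.27 when they shared the vehicle animal (84 comparisons). It was -0.14 when they did not (168), which follows from the first value because the deviations of a dose cancel out. With the replicate number as a block, 72 genes were called at 0.3 µg/kg, 23 higher (0.166%) and 49 lower (0.353%), and all 16 were among them. This fit leaves the spread between vehicle animals out of the error. With the vehicle animal as a random block 21 genes were called, 4 higher (0.0288%) and 17 lower (0.123%). They held 14 of the 16, without Gpatch1 and Prkaa2 (adjusted p = 0.0553 each by limma). The genes that the fixed block added and that are named here were picked after their values were seen. Cldn4, a tight junction claudin, had the highest mean of all genes, at 1.23 ± 0.32 (SD, n = 3), from pair values of 1.49, 1.32 and 0.88. Its adjusted p was 0.00154 with the fixed block, 0.0465 with the random block and 0.159 without a block. From the lowest to the highest dose Cldn4 averaged 0.17, 0.35, 0.87, 1.23, -0.08, 0.24, 0.87 and 0.88. Bach1, a repressor of antioxidant genes, had -0.45, -0.81 and -0.70 (adjusted p = 0.00717 with the fixed block, 0.0567 with the random block and 0.139 without). Cd36, a fatty acid receptor of enterocytes, had 0.85, 0.81 and 0.31 (adjusted p = 0.0154 with the fixed block, 0.154 with the random block and 0.257 without).

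Next to the neighbouring doses, the values at 0.3 µg/kg were close to those at 0.1 and apart from those at 1 µg/kg for several of these genes. Taf15 averaged -0.23, -0.72, -0.94, -1.0, 0.30, -0.13, -0.18 and -0.82 from the lowest to the highest dose. Its pairs at 0.1 µg/kg were at -0.96, -0.94 and -0.91, and it was called there against vehicle (adjusted p = 0.00327 by limma). Those at 1 µg/kg were at 0.61, 0.33 and -0.06. No pair at 1 µg/kg overlapped those at 0.3, a separation that was not counted over all genes. The difference between 0.3 and 1 µg/kg was -1.30 (adjusted p = 0.0045 by limma), the only call among 13853 genes (0.00722%), of which 5.77% had an unadjusted p under 0.05. It was not called without replicate 2 or without replicate 3 at 0.3 µg/kg, with quantile normalization, with the treated animal in Cy3 only, or in a fit of these 2 doses' pairs alone. The replicate block called 19 genes in this contrast, 4 higher (0.0289%) and 15 lower (0.108%), among them Taf15 (adjusted p = 0.00118), Gprin3 (0.00974) and Cldn4 (0.0293).

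**Figure D3:**
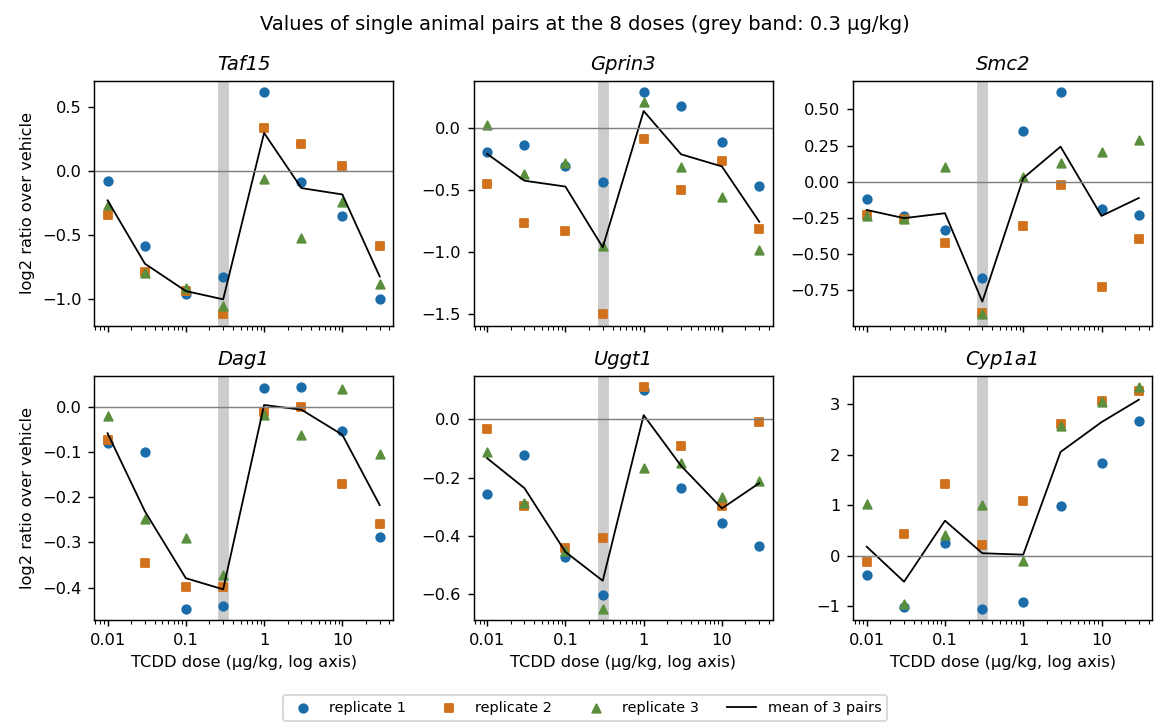
Log2 ratios over vehicle (y axis, own scale in each panel) of 6 genes against the TCDD dose in µg/kg on a log axis, with 1 symbol for each animal pair and a line through the means. At 0.3 µg/kg (grey band) Taf15, Gprin3, Smc2, Dag1 and Uggt1 are at their lowest means, and Cyp1a1 spreads from -1.06 to 0.99.

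Gprin3 averaged -0.47 at 0.1 µg/kg, -0.96 at 0.3 and 0.13 at 1 µg/kg. Its difference from 1 µg/kg was -1.09 (adjusted p = 0.246). Smc2 averaged -0.22, -0.83 and 0.03 at these doses. Its differences from 0.1 and 1 µg/kg, -0.61 and -0.85, were not called (adjusted p = 0.999 and 0.494). Uggt1 averaged -0.45, -0.55 and 0.01, and Dag1 -0.38, -0.40 and 0.00. Their differences from 1 µg/kg were -0.57 (adjusted p = 0.0757) and -0.41 (adjusted p = 0.0781). Both were called at 0.1 µg/kg by their own comparison with the same vehicle animals (adjusted p = 0.0183 for Uggt1 and 0.00523 for Dag1), where 0.0289% of genes were called lower. At 30 µg/kg several of the falls were called again by limma. Among them were Taf15 (-0.82, adjusted p = 0.00047), Gprin3 (-0.76, 0.0236), Hmg20b (-0.63, 0.00262), Golgb1 (-0.41, 0.00463), Xiap (-0.31, 0.0262) and Dag1 (-0.22, 0.0363). Smc2, Uggt1, Chmp4c and Nlk were not called there (0.785, 0.128, 0.524 and 0.248). The same 3 vehicle animals served at 30 µg/kg, and the share of all genes called at that dose is not given here.

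Between 0.3 and 0.1 µg/kg no gene of 13849 was called by limma, and 507 (3.66%) had an unadjusted p under 0.05. Against the mean of the other 7 doses no gene of 13795 was called either, with 1030 (7.47%) at an unadjusted p under 0.05. The smallest adjusted p there was that of Pou3f1, a POU-domain transcription factor, which was 1.08 below the mean of the other doses (adjusted p = 0.0538, or 0.00852 with the replicate block). Its values at 0.3 µg/kg were -0.08, 0.15 and 0.32, while its mean reached 3.20 at 10 µg/kg and then 4.43 at 30 µg/kg. With the block Nr2c2, a nuclear receptor, was also called, at -0.42 from the mean of the other doses (adjusted p = 0.00852), and 0.0145% of genes were called lower.

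No measured gene of the receptor battery was called at this dose, and 0.115% of all genes were. With so small a share, a list of 11 genes would mostly hold no call. The battery also counts Ahr, Arnt, Ptges3 and Pou3f1. Cyp1a1, the xenobiotic-metabolizing monooxygenase most widely used as a dioxin marker, had -1.06, 0.21 and 0.99 in the 3 pairs. Replicate 1 was below 0 and replicate 3 above it on both of their arrays, so the pairs disagreed in sign beyond the dye exchange. The mean was 0.05 ± 1.04 (SD, n = 3; adjusted p = 0.981 by limma), against 2.05 at 3 µg/kg and 3.08 at 30 µg/kg. Cyp1b1, a second monooxygenase of the battery, had 0.19, 0.38 and 0.18 (adjusted p = 0.461), and Tiparp, which ADP-ribosylates and represses the receptor, had -0.30, 0.40 and 0.00. Ahr itself had 0.16, -0.05 and 0.44, and its partner Arnt 0.05, 0.09 and 0.07. The quinone reductase Nqo1 had -0.20, -0.38 and 0.45, and the glutathione transferase Gsta1 0.03, 0.00 and 0.78. Cyp2s1, Nfe2l2 and Ptges3 averaged 0.06, 0.03 and -0.06. Of 18 listed battery genes 11 were measured, with a median of 0.06.

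In the families of the 3 leading genes no further measured member was called. With 0.115% of all genes called, lists this short would mostly hold no further call. Of 23 measured FET and hnRNP genes Taf15 alone was called, and the list had a median of -0.06. Ewsr1 was at 0.07, and Sfpq, a paraspeckle splicing factor, at -0.40 with pair values of -0.68, -0.11 and -0.43 (adjusted p = 0.37). Of 19 measured genes of the condensin, cohesin and SMC5/6 complexes Smc2 alone was called, and the median was -0.06. Smc4, the partner of Smc2 in condensin, had -0.05, -0.02 and -0.10. Smc3 of cohesin had 0.23, 0.22 and 0.26, and Wapl, which releases cohesin from chromatin, -0.41, -0.20 and -0.53 (adjusted p = 0.202 without a block, 0.00425 with the fixed block and 0.0817 with the random block). Among 18 G protein signalling genes Gprin3 alone was called, with a list median of 0.04. Splicing, general transcription and immediate early lists held no called gene and had medians of -0.01, 0.00 and 0.02. Over all genes the median was 0.0009.

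**Figure D4:**
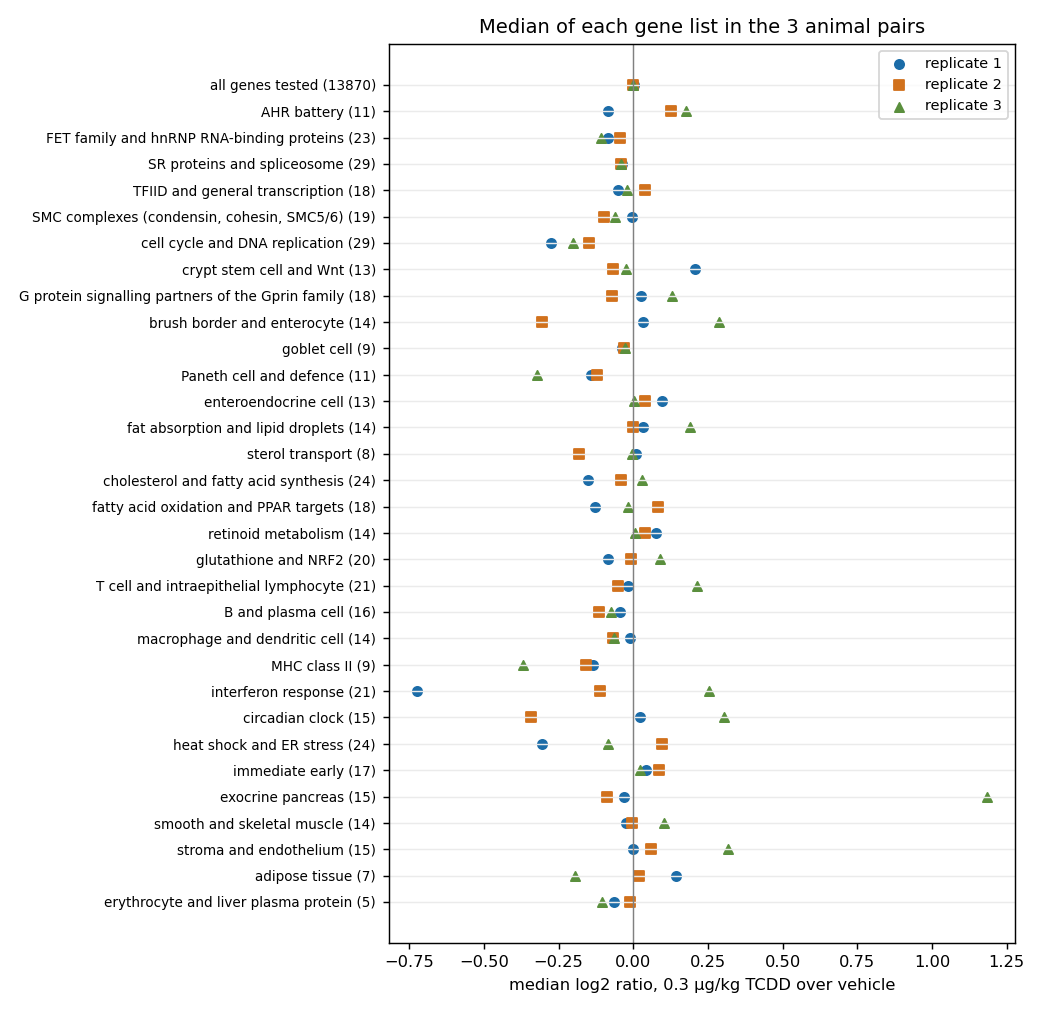
Median log2 ratio (x axis, 0.3 µg/kg of TCDD over vehicle) of all genes and of 31 gene lists, with the number of measured genes in brackets and 1 symbol for each animal pair. The cell cycle list lies below 0 in all 3 pairs, the interferon list from -0.72 to 0.25, and the pancreas list at 1.18 in replicate 3 alone.

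Genes of cell division and DNA replication had values below 0 together, though none was called, where 0.115% of all genes were. Of 29 measured genes, 26 had means below 0 and 19 were below 0 in all 3 pairs, a pattern that 13.2% of all genes had. Medians over the list were -0.27, -0.15 and -0.20 in the 3 pairs, and 4 genes had an unadjusted p under 0.05, as had 9.63% of all genes. Mcm4, a subunit of the replicative helicase, had -0.48, -0.28 and -0.61 (adjusted p = 0.257 by limma), and Pola1, the catalytic subunit of DNA polymerase alpha, -0.26, -0.69 and -0.63 (adjusted p = 0.432). The cyclin Ccnd1 had -0.69, -0.39 and -0.50, whereas the helicase subunit Mcm2 had -0.26, 0.96 and -0.01. In the pairs at 0.1 µg/kg this list had medians of -0.12, -0.36 and 0.07. In those at 1 µg/kg they were -0.16, -0.30 and -0.11.

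No gene of the epithelial lineage lists was called, which short lists would mostly show with 0.115% of all genes called. The 14 measured enterocyte genes had medians of 0.03, -0.31 and 0.29. Slc5a1, the sodium-glucose cotransporter of the brush border, was at -1.59 in replicate 2 and at -0.09 and 0.13 in the others. The 9 goblet cell genes had a median of -0.01 and the 13 enteroendocrine genes one of 0.06. Of the enteroendocrine genes, 3 had an unadjusted p under 0.05, as had 9.63% of all genes. The fat absorption and clock lists also held 3 each. Sct, the hormone secretin, was at 0.13, 0.26 and 0.34 (adjusted p = 0.461). The 11 Paneth cell and defence genes had medians of -0.14, -0.12 and -0.32. Of 13 crypt stem cell and Wnt genes, Prom1 was the lowest, at -0.28, -0.15 and -0.61 (adjusted p = 0.181).

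Of the lists for lipid and xenobiotic handling, none held a called gene, with 0.115% of all genes called. Medians were 0.05 for fat absorption, -0.08 for sterol transport, -0.04 for cholesterol and fatty acid synthesis, -0.05 for fatty acid oxidation, 0.05 for retinoid metabolism and 0.02 for glutathione and NRF2 genes. Abca1, which exports cholesterol, was at -2.10 in replicate 2 but at -0.11 and 0.32 in the other pairs. Txnrd3, a thioredoxin reductase, had -0.32, -0.21 and -0.43 (adjusted p = 0.174). The 24 heat shock and endoplasmic reticulum stress genes had medians of -0.31, 0.10 and -0.08, with the chaperone Hsp90b1 at -0.99, -0.15 and -0.49 (adjusted p = 0.239).

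No gene of the immune lists was called, with 0.115% of all genes called. The 9 MHC class II genes had medians of -0.14, -0.16 and -0.37, and 8 had means below 0, as had 6885 of all 13870 genes. Cd74, the invariant chain, had -0.14, -0.24 and -0.51 (adjusted p = 0.639). Both orientations were below 0 for this list in replicate 3 only. The 21 interferon response genes had medians of -0.72, -0.11 and 0.25. The low value was that of replicate 1, and the pairs with its vehicle animal had medians between -0.88 and -0.19 for this list at the 8 doses. At 0.3 µg/kg the GTPase Igtp was at -1.39 in the pair of replicate 1 and at 0.08 and -0.14 in the others. T cell, B cell and macrophage lists had medians of 0.03, -0.07 and -0.05.

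**Figure D5:**
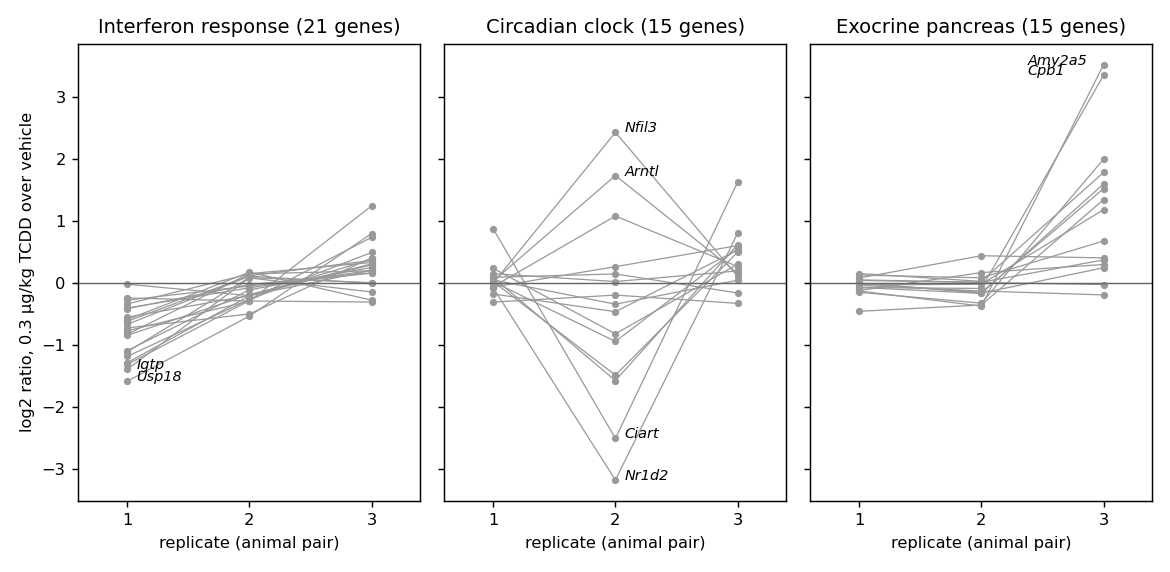
Log2 ratios (y axis, 0.3 µg/kg of TCDD over vehicle) of the measured interferon response, clock and exocrine pancreas genes in the 3 animal pairs (x axis), with 1 line for each gene. The interferon genes are lowest in replicate 1, the clock genes spread from -3.18 to 2.43 in replicate 2, and pancreas genes reach 3.52 in replicate 3.

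The clock genes of replicate 2 differed in both directions, as the plot of single pairs shows. Nfil3, a repressor of the D-box, was at 2.53 and 2.33 on the 2 arrays of that pair, and Arntl, the partner of Clock, at 1.67 and 1.80. Cry1 was at 1.08. The output factors Hlf and Tef were at -1.57 and -1.49, Ciart at -2.51 and Per1 at -0.94, while Clock itself was at 0.15. The same vehicle animal gave values between -0.06 and 0.39 for Nfil3 and between -0.03 and 0.24 for Arntl at the other 7 doses. There Ciart had -1.55 to -0.11, Hlf -0.96 to 0.50, Per1 -0.72 to 0.05 and Nr1d2 -0.48 to 0.42. In this pair 76 genes were at least 2-fold from vehicle while both other pairs were within 0.5 on the log2 scale. In replicate 1 there were 12 such genes and in replicate 3 there were 23.

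The pancreas signal of replicate 3 was present on both arrays. The list's medians there were 1.01 and 1.36, against -0.19 to 0.07 on the arrays of the other pairs. Besides Amy2a5 and Cpb1, the elastase Cela3b was at 2.00 and the trypsin Prss2 at 1.78. Of 15 measured genes Ctrb1 and Ctrl stayed at -0.03 and -0.19. Similar list medians occurred in single pairs at other doses, with 2.41 at 0.03 µg/kg (replicate 2) and 2.83 at 30 µg/kg (replicate 1). The stroma and endothelium list also had its highest median, 0.32, in replicate 3, against 0.00 and 0.06. Muscle, adipose and blood or liver lists had medians over the pairs' means of 0.00, -0.02 and -0.09.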

How the data were processed

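Two-colour arrays of jejunal epithelium RNA were read from the deposited series table, which holds log2 ratios as far as the values show. Per the labels' protocols, RNA was extracted with TRIzol and labelled with Cy3 and Cy5. Scanner software, background correction, normalization and filters are not given in the sources used here. Of the cells of the deposited log2 values 25% are empty. Without intensities no filter on dim spots was possible, and the number of pairs limits the precision.

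Values shared exactly by at least 200 probes of an array were dropped (271 otherwise complete probes, 120 genes). Arrays were centred on the median, the 2 dye-swapped arrays of a pair averaged, and probes of a gene averaged. Of the table's probes, 32555 had 1 gene symbol in the platform annotation, 45 had several and 8485 were not listed. Symbols of 32416 were updated by gene ID. limma 3.58.1 (lmFit, eBayes; R 4.3.3, statmod 1.5.0) fitted all 24 pairs with 1 mean per dose, so that 12050 genes had 16 residual degrees of freedom. Differences of 0.3 from 0.1, from 1 and from the mean of the other 7 doses came from the same fit. P-values were adjusted by Benjamini-Hochberg over all genes tested, and an adjusted p under 0.05 was called. The fit was tested on simulated data whose pairs were independent, so that test did not cover the shared vehicle animals.

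Named genes are, after leaving out predicted transcripts and clones: the 10 largest called changes each way with 1 sign in all pairs, filled up by smallest p; the 5 smallest p each way in each difference; Taf15, Gprin3 and Smc2; 2 genes per list; and the measured receptor battery. The full list of called genes is also given. The comparison, the genes and the lists were chosen with earlier results of these data known. The replicate number pairs samples because it marks 1 shared vehicle animal, and the fit with it as a block is given beside the counts it changes.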

Additional observations from a re-analysis of the deposited data

Results flagged for a closer look

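The difference between 0.3 and 1 µg/kg in Taf15 was -1.30 on the log2 scale, from means of -1.0 at 0.3 µg/kg and 0.30 at 1 µg/kg. It stands out because the effect against the same 3 vehicle animals differed between these doses in a direct test (adjusted p = 0.0045 by limma). All 3 pairs at 0.3 µg/kg lay below all 3 at 1 µg/kg, a separation that was not counted over all genes. The call ended without replicate 2 or without replicate 3 at 0.3 µg/kg, with quantile normalization, in a fit of the pairs of these 2 doses alone, with the treated animal in Cy3 only, and without replicates 2 and 3 together.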

How the results depend on the processing

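With all 3 pairs and centred arrays, 16 genes were called at 0.3 µg/kg, 1 in the difference from 1 µg/kg and 0 in the other differences. Requiring at least 1.5-fold left 3 of the 16. Without centring, the counts were 154 at 0.3 µg/kg (14 of the 16 among them), 204 against 1 µg/kg and 6 against the other 7 doses. Quantile normalization gave 6 at 0.3 and 0 against 1 µg/kg. Using the weakest probe of each gene gave 4 against 1 µg/kg and 1 against the other doses. Fitting only the pairs of the doses compared gave 0 at 0.3 and 0 against 1 µg/kg. The replicate block, which pairs samples by vehicle animal, gave 72 at 0.3 µg/kg, 19 against 1 µg/kg and 2 against the other doses as a fixed term. As a random term it gave 21 at 0.3 µg/kg (14 of the 16 among them), 11 against 1 µg/kg and 1 against the other doses. One dye orientation alone is open to dye bias. It gave 942 genes (treated animal in Cy5) and 1576 (in Cy3) at 0.3 µg/kg, 0 against 1 µg/kg in Cy3, and 2 against the other doses in Cy5. Leaving out 1 replicate at 0.3 µg/kg gave 3 to 17 genes at this dose and 0 to 7 against 1 µg/kg. Leaving out replicates 2 and 3 together, chosen after seeing the data, gave 0 and 0, with the lone pair assumed to vary like the others. Dropping values within 0.0005 of the shared value, also chosen after seeing the data, left the 16 calls in place and added 1. With the sign turned, 2 named genes had an adjusted p under 0.05 by limma, Cyp26b1 at 0.32 in Cy5 only and Arhgap20os at -0.37 in Cy3 only, where the dye bias is not cancelled. Genes that were not called changed sign elsewhere, such as Abca1 at 0.11 and Slc5a1 at 0.02 without replicate 2. Under the 15 planned settings Taf15 was called in 14, Dag1 and Uggt1 in 13 each, and Golgb1 in 12. The 0.3 minus 0.1 µg/kg count was 0 in every setting run.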
